A study of Mus musculus with 3 samples.

Results

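Pik3c2g encodes the gamma isoform of the class II phosphoinositide 3-kinases, and it was described here together with the catalytic and regulatory genes of its family. The members were the probes that the array files name Pik3c2g, Pik3c2a, Pik3c2b, Pik3c3, Pik3ca, Pik3cb, Pik3cd, Pik3cg, Pik3r1 or Pik3r2. Of these 10 names 9 had a probe, out of 28090 names in the files, with 20 of the 41174 different probes on the array, and Pik3c2b had none under its name. Pik3c2g was picked because its ratio in these data was among the lowest, so its ratios are given as a description and not as a test. The study compared ovaries of female C57Bl/6J mice, 10 weeks old, taken 3.5 days after copulation at zeitgeber time 12 (12 hours after lights on). One genotype carried floxed Bmal1 alleles and Cre recombinase under the promoter of sf-1 (written Bmal1fx/fxCresf-1 in the labels, here cKO), and the controls carried the floxed alleles without Cre (Bmal1fx/fx, which the labels also call wild type). The sf-1 promoter is known to be active in steroid-producing cells of the ovary and adrenal, in the pituitary and in the hypothalamus, so recombination is not limited to 1 ovarian cell type and spares cells of the ovary that do not use it. Each of 3 two-colour Agilent arrays held 1 pool of 3 cKO animals in the green dye and 1 pool of 3 control animals in the red dye, 9 animals per genotype, and no array had the dyes swapped, so a dye effect of a probe and the genotype cannot be told apart.

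Phosphoinositide 3-kinases phosphorylate the 3-position of the inositol ring of membrane phosphoinositides. Class I enzymes pair a catalytic subunit with a regulatory subunit and make phosphatidylinositol trisphosphate below activated receptors, which recruits AKT. Class II enzymes are large single-chain kinases that act mainly on endosomes and make singly or doubly phosphorylated lipids, and the class III enzyme, encoded by Pik3c3, makes phosphatidylinositol 3-phosphate for endosomal sorting and autophagy. The class II gamma isoform is known for a narrow tissue distribution that includes the liver. In the ovary class I signalling is known for its part in follicle activation and in granulosa and luteal cell growth. BMAL1, encoded by the gene listed as Arntl, is a core transcription factor of the circadian clock that binds E-box motifs with CLOCK.

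The 4 probes that the files name Pik3c2g are shown first because only a pair of them gave signal and the description of the gene rests on that pair. All probes are 60 bases long and are given 5′ to 3′ as deposited, except A_52_P402847, of which bases 13 to 42 are given and in which capitals mark the hexamer AATAAA.
A_52_P78514: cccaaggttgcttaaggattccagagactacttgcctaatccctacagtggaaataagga
A_51_P191077: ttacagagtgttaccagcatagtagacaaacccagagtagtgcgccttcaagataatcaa
A_52_P564413: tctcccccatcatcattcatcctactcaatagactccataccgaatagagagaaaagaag
A_52_P402847: attttctgcttaAATAAAaagcactgaatt
The first is assigned in the files to the cDNA AK054415, which they describe as cloned from ovary in early pregnancy. The second and the third are both assigned to the transcript NM_207683, and the last to the cDNA AK036916. The sequences are distinct, since no pair of the 4 shares a run of more than 7 bases and the longest run that any of them shares with a probe of another name is 16 bases. The probe with the hexamer has no reading frame without a stop codon, as have 21.7% of all probes, while the other 3 have 1 or 2 such frames. Its GC content is 20.0%, against 41.7% to 45.0% in the other 3 and a median of 40.0% over all probes.

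The bright pair gave the largest ratios of the family. With A_52_P78514 the processed intensity, which the scanner software corrects for background, spatial trend and dye, was 737 in the cKO pool and 10427 in the control pool on array 1. It was 955 and 8900 on array 2, and 1023 and 6816 on array 3. Every control pool lay above every cKO pool, and the groups did not overlap. With A_51_P191077 it was 976 in the cKO and 7931 in the control pool on array 1, 1197 and 9312 on array 2, and 1098 and 5873 on array 3. Again no cKO pool reached the lowest control pool. The gene was chosen on this contrast, so nothing is read from the separation with either probe. The share of all probes with such a separation was not counted. Both probes were well above background, by the scanner software's own mark, in both channels of all 3 arrays, so these ratios are measured values and not bounds.

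**Figure D1:**
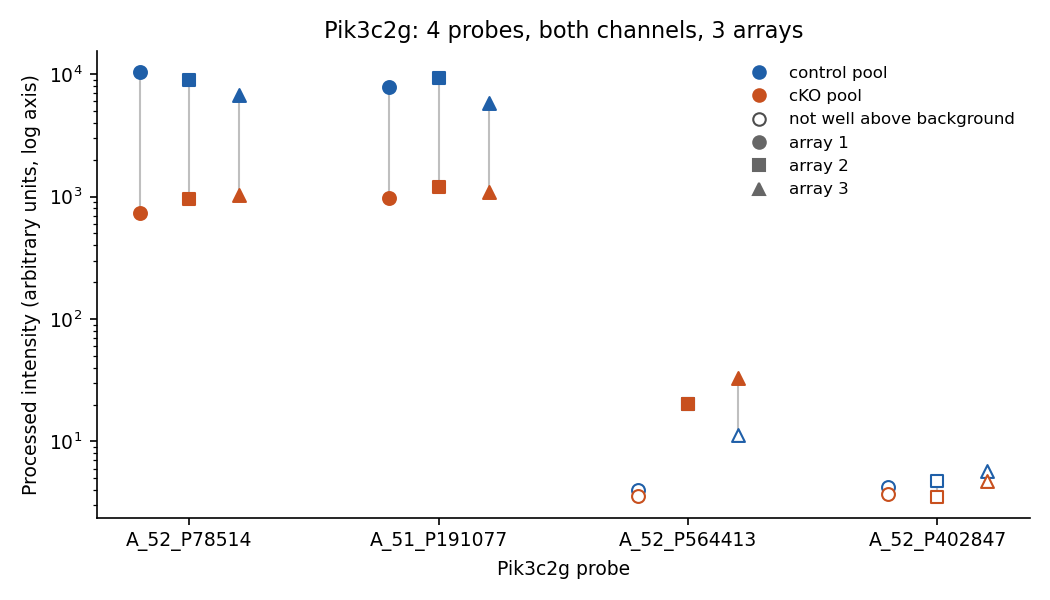
Processed intensity (arbitrary units, log axis) of the 4 Pik3c2g probes in the control (blue) and cKO (orange) channel of each array; symbols mark the arrays, open symbols mark signals not well above background, and grey lines join the channels of 1 array. With A_52_P78514 the cKO pools lie between 737 and 1023 and the control pools between 6816 and 10427, while the 2 probes on the right stay near background in both channels; the array 2 points of A_52_P564413 lie on top of each other.

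The log2 ratio of the processed signals, cKO over control (here the processed ratio), was -3.82, -3.22 and -2.74 with A_52_P78514 on arrays 1 to 3. Its mean was -3.26 ± 0.54 (SD, n = 3 arrays), which is 9.58-fold lower in the cKO pools. With A_51_P191077 the processed ratio was -3.02, -2.96 and -2.42, with a mean of -2.80 ± 0.33 (SD, n = 3), or 6.97-fold lower. Array 3 had the ratio nearest to 0 with either probe. The probe from the ovarian cDNA thus gave the larger ratio on each array, and the gap between the probes was 0.80, 0.26 and 0.32, on average 0.46 ± 0.30 on the log2 scale (SD, n = 3). In RNA of a whole ovary, fewer cells that make a transcript and less transcript per cell cannot be told apart.

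The other 2 Pik3c2g probes gave no usable ratio. A_52_P402847 was not well above background in either channel of any array, with processed intensities of 3.54 to 4.74 in the cKO and 4.22 to 5.71 in the control pools, and its ratio is listed as 0 on each array because the software put surrogate values in both channels. A_52_P564413, which shares its assigned transcript with A_51_P191077, passed the background mark on 2 of 3 arrays for the cKO pool and on none for the control pool. Its processed intensity was 3.57, 20.2 and 33.0 in the cKO pools and 4.02, 20.3 and 11.4 in the control pools. Its processed ratios of 0.00, -0.01 and 1.54 come from signals at or near background and are not set against the pair above.

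A second normalisation, by loess on the background-corrected signals, was the basis of the tests across all genes, and it changed the gap between the bright probes. The loess ratio of A_52_P78514 was -4.03, -3.36 and -3.02, with a mean of -3.47 ± 0.52 (SD, n = 3), or 11.1-fold lower. That of A_51_P191077 was -2.48, -2.50 and -1.90, with a mean of -2.29 ± 0.34 (SD, n = 3), or 4.90-fold lower. The gap thereby grew to 1.17 ± 0.35. The probes sit at opposite ends of the array, in rows 10 and 529 of 532, and loess ratios of all kept probes followed the row. Their median was -0.22, -0.16 and -0.19 in rows 1 to 133 and 0.19, 0.15 and 0.18 in rows 400 to 532 of arrays 1 to 3, while the medians of the processed ratios stayed between -0.05 and 0.07. With the trend over rows taken out of the loess ratios the means became -3.16 and -2.50, and the gap 0.66 ± 0.28 (SD, n = 3). The gap kept its sign on all 3 arrays under each of the 3 versions.

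**Figure D2:**
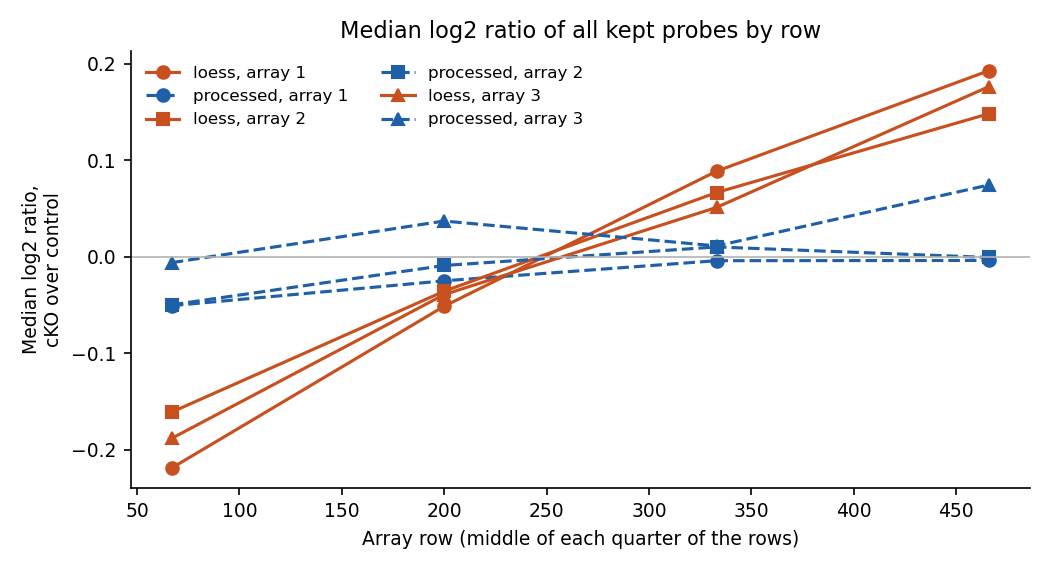
Median log2 ratio of all kept probes (vertical axis, cKO over control) in each of 4 equal blocks of the array's rows (horizontal axis), for loess ratios (orange, solid) and processed ratios (blue, dashed) of the 3 arrays. The loess medians climb from about -0.22 in the first block to 0.19 in the last on array 1 and likewise on the others, and the processed medians stay between -0.05 and 0.07.

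In the fit of the loess ratios across all genes, each read by its brightest kept probe, Pik3c2g had the second lowest mean of 17841 genes. The lowest was Star, the cholesterol carrier of mitochondria in steroid-producing cells. On the processed ratios Pik3c2g had the rank 4. It was the only member called at an adjusted p under 0.05 by limma with Benjamini-Hochberg adjustment, 1 of 9 tested members, where 32 of all 17841 genes (0.179%) were called. Because the gene was chosen on this contrast, nothing is read from that call. The adjusted p was 0.0387 on loess ratios, 0.0199 on processed ratios and 0.0442 with the row trend removed. It was 0.0578 and 0.0586 for the bright pair when every kept probe was tested as a row of its own, a fit that called 1 of 26408 probes (0.00379%), and 0.0576 without array 1 and 0.0525 without array 3.

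The genes next to Pik3c2g gave no ratio to set beside it. Plcz1, which encodes a sperm phospholipase C, and Capza3, a capping protein subunit of the male germ line, follow it in the RefSeq order and were not well above background in either channel of any array. The other 4 neighbours among the 3 genes on each side, which include Rergl, have no probe under their names. Upstream sequence is given for both transcript starts of Pik3c2g because the study removed a factor that binds E-boxes. The RefSeq promoter table (GRCm38.p6) holds starts 227 kb apart on the plus strand of chromosome 6, and the 250 bases before each are given 5′ to 3′.
chr6:139613822-139614071: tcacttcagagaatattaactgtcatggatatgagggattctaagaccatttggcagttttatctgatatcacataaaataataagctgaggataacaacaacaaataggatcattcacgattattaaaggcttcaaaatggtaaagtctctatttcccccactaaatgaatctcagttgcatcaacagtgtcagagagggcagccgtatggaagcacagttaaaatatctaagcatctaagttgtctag
chr6:139841195-139841444: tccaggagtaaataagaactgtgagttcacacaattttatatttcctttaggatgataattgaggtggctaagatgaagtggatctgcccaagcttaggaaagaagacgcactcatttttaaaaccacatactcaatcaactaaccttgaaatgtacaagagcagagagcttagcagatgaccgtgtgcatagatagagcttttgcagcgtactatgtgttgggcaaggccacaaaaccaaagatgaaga
On both strands, neither window holds the E-box CACGTG, its variant CACGTT or AAGGTCA, a form of the motif bound by the factor SF-1. Only these exact letters were searched for. The chr6:139841195-139841444 window holds AAGGCCA, which differs from AAGGTCA by a C in place of the T and was not counted. Of 32851 promoters listed there, 6.02% hold CACGTG, 3.85% hold CACGTT and 4.08% hold AAGGTCA in these 250 bases. The table has 14 promoters of 9 of the family's genes, and the only match was CACGTT in 1 promoter of Pik3cd. These letters being absent from a window says nothing of binding elsewhere, and which start the ovary uses was not measured.

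Of the other class II genes, the 1 that could be measured had far smaller ratios. Pik3c2a, the widely expressed alpha isoform, had 3 probes, all kept. Its brightest, A_52_P548680, had processed ratios of -0.07, -0.63 and 0.20 on arrays 1 to 3. A_52_P563489 had -0.31, -1.17 and 0.93, and A_52_P364232 had 0.13, 0.10 and 0.22. The first and second of these moved in the same order over the arrays, lowest on array 2, and crossed 0, while the third stayed within 0.12 of itself and above 0. Their means were -0.17 ± 0.42, -0.19 ± 1.05 and 0.15 ± 0.06 (SD, n = 3). In the loess ratios A_52_P364232, which lies in row 57, was below 0 on all 3 arrays, with a mean of -0.04. With the row trend removed its mean was 0.20. For Pik3c2b, 1 probe listed under a transcript identifier is described in the files as the class II beta subunit. It was not well above background in either channel of any array, so its processed ratios of -0.96, 0.55 and 0.64 give no usable value for this gene.

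Pik3c3, the class III lipid kinase of autophagy and endosomal sorting, was read by 1 probe. Its processed ratio was -0.11, -0.14 and -0.52, with a mean of -0.26 ± 0.23 (SD, n = 3). All 3 arrays were below 0. The loess ratio was -0.55 ± 0.28, with an adjusted p of 0.320 by limma, but the probe lies in row 18, where loess ratios ran low, and with the row trend removed the mean was -0.26.

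Among the class I catalytic genes, Pik3ca, which encodes the ubiquitous alpha catalytic subunit p110 alpha, had probes that did not read alike. The probes are shown because they differ in ratio within 1 gene; of the second, bases 16 to 45 are given.
A_52_P265002: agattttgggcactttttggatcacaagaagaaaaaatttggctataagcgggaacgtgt
A_52_P577116: tttgaatgattcatgtcctagaaaatagct
The first has reading frames without a stop codon and the second has none. A_52_P577116 had processed ratios of 0.45, 0.09 and 0.74, with a mean of 0.43 ± 0.33 (SD, n = 3), and was above 0 on every array. A_52_P265002 had 0.19, -0.10 and -0.10, with a mean of 0.00 ± 0.17 (SD, n = 3). The gap, first probe minus second, was -0.26, -0.19 and -0.84. On loess ratios the probes fell on opposite sides of 0, at -0.32 ± 0.15 and 0.55 ± 0.30 (SD, n = 3; adjusted p of 0.445 and 0.353 by limma with each probe as a row), and A_52_P265002 lies in row 34. With the row trend removed their means were -0.05 and 0.45. Of 6192 genes with several kept probes, 51.2% had probe means on both sides of 0 in the loess ratios, so 2 of 4 members doing so, Pik3ca and Pik3r1, is near the background. For Pik3ca 1 probe was below and the other above 0 on all 3 arrays in the loess ratios, a narrower pattern of 441 genes (7.12%). With the row trend removed A_52_P265002 crossed 0, at 0.14, -0.09 and -0.20.

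Pik3cb, the beta catalytic subunit, had processed ratios of 0.32, -0.43 and 0.34 with its kept probe, with a mean of 0.08 ± 0.44 (SD, n = 3). Its other probe was not well above background in either channel of any array. Pik3cd and Pik3cg encode the delta and gamma catalytic subunits, known mainly from leukocytes. Pik3cd had processed ratios of -0.08, 0.38 and 0.16, with a mean of 0.15 ± 0.23 (SD, n = 3), from 1 kept probe, the other being too dim for the filter. Pik3cg was dim, at processed intensities of 48.0 to 82.7 in the cKO and 33.5 to 79.9 in the control pools, and its control channel was well above background on 1 of 3 arrays. Its processed ratio was 1.01, 0.52 and -0.36, a mean of 0.39 ± 0.69 (SD, n = 3), so array 3 lay on the other side of 0.

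The median of the macrophage markers, though not each marker, moved with the arrays in the same order as Pik3cg. This order was not particular to macrophages. The loess medians on arrays 1 to 3 were 0.01, -0.05 and -0.29 for 6 endothelium markers and -0.02, -0.15 and -0.24 for 4 liver markers. The mean loess ratios of single macrophage markers ran from -0.32 to 1.38, the highest being that of Lyz2. In the loess ratios 2 macrophage markers were above 0 on all arrays and 1 was below. The median loess ratio of the 8 macrophage markers, all tested, was 0.82, 0.70 and -0.21 on arrays 1 to 3, and their summed processed intensity was 81795 to 164618 in the cKO and 31959 to 60236 in the control pools. For 11 markers of lymphocytes and other leukocytes, 10 of them tested, the medians were 0.14, 0.15 and -0.14, and the summed intensities were 7139 to 10270 and 5997 to 10490, which overlap. Every gene of the macrophage and the leukocyte list was well above background on some array. The part of these cells in the Pik3cd and Pik3cg ratios was not tested.

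The ratios of the regulatory genes differed between arrays. Pik3r1 encodes p85 alpha, the main regulatory subunit, and its 4 probes were all kept. A_51_P511236 had processed ratios of 0.01, 0.45 and -0.94, and A_52_P407239 had -0.14, 1.18 and -1.19. A_52_P235476 had -0.10, -0.03 and -0.81, while A_52_P307938 had -0.04, -0.06 and -0.04. The first 3 were lowest on array 3 and the last was within 0.02 of itself on all arrays, so the probes of this gene differed in how they varied and not only in their mean. The SDs over arrays were 0.71, 1.19, 0.43 and 0.01 in that order, around means of -0.16, -0.05, -0.31 and -0.05. Pik3r2, the beta regulatory subunit, had processed ratios of 0.21, 0.30 and -0.82, with a mean of -0.10 ± 0.62 (SD, n = 3). It too was lowest on array 3. The control pool of array 3 read 13456 with this probe against 5573 and 4905 on arrays 1 and 2, and the cKO pools read 6038 to 7639. The loess medians of the 6 smooth muscle markers were 0.20, 1.07 and -1.004 on arrays 1 to 3. Their summed intensities were 59448 to 128475 in the cKO and 55413 to 132899 in the control pools. A lowest median on array 3 was not particular to smooth muscle. It was also seen for luteal and granulosa (-0.57), theca (-0.43), endothelium (-0.29), liver (-0.24), macrophage (-0.21) and leukocyte markers (-0.14). Oocyte, oviduct and pancreas markers did not have it. The part of any of these cells in the Pik3r1 and Pik3r2 ratios was not tested.

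**Figure D3:**
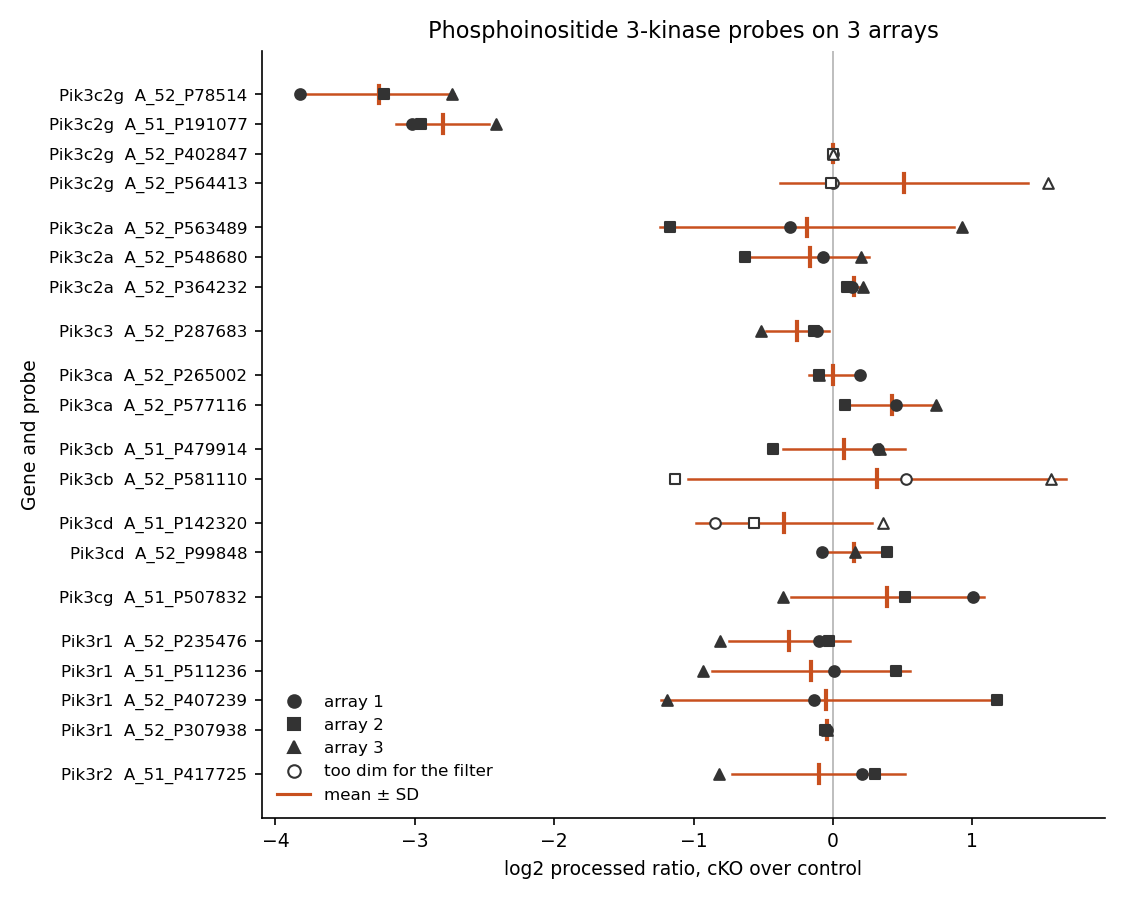
Processed log2 ratio (horizontal axis, cKO over control) of each of the 20 family probes (vertical axis); symbols mark the 3 arrays, open symbols mark probes too dim for the filter, and orange lines give the mean ± SD over arrays. The bright pair of Pik3c2g lies between -3.82 and -2.42 and the other kept probes lie between -1.19 and 1.18, most of them crossing 0.

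Across the family, the 8 tested members other than Pik3c2g had mean processed ratios between -0.26 and 0.43, and the lowest adjusted p among them in the loess fit was 0.320. An adjusted p above the threshold does not show that these genes were equal in the genotypes: with 3 arrays their SDs reached 0.71. The median loess ratio of the 9 members was 0.05 (0.08 without Pik3c2g), against 0.00 over all genes tested, and on processed ratios it was -0.10 (-0.01 without Pik3c2g) against -0.02. Of the 8 members other than Pik3c2g, 3 kept 1 sign on all 3 arrays in the loess ratios (37.5%), against 35.2% of all genes, and on processed ratios 2 did (25.0%), against 24.2% of all genes. These shares are near the background.

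The wider phosphoinositide pathway was read with 6 further lists of 75 genes, of which 74 had a probe and 72 were tested. No gene of these lists was called in either direction on loess ratios, on processed ratios or with the row trend removed, while limma gave 10 of the 72 an unadjusted p under 0.05, against 12.3% of all genes. Of all 17841 genes 13 (0.0729%) were called higher and 19 (0.106%) lower on loess ratios, 0.297% were called on processed ratios and 0.135% with the row trend removed. For the 72 tested genes of the 6 lists the median loess ratio was 0.06, and the median processed ratio was 0.00. In the loess ratios 28 of the 72 (38.9%) kept 1 sign on all arrays, and in the processed ratios 18 did (25.0%), again beside 35.2% and 24.2% of all genes.

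Of the genes that feed and steer the class I and class III enzymes, 0 of 9 other regulatory and adaptor genes were called, and their median loess ratio was 0.00. Pik3ip1, a membrane protein that inhibits class I kinases, had processed ratios of -0.56, 0.14 and -1.06, and Atg14, the autophagy subunit of the class III complex, had -0.22, -0.11 and 0.44. Either gene crossed 0 over the arrays. Of 11 receptors and adaptors upstream 0 were called, with a median of 0.02. Pdgfra, a receptor tyrosine kinase of stromal and theca cells, had processed ratios of 0.22, 1.13 and 0.02, and Gab1, a docking adaptor, had 0.16, -0.06 and -0.23. Gab1 was above 0 on all arrays in the loess ratios, with a mean of 0.23, and its mean was -0.04 on processed ratios.

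The kinases and phosphatases that make and remove the same lipids gave no call either. Among 11 kinases that act at the 4- and 5-position or on phosphatidylinositol 3-phosphate, the median loess ratio was 0.09. Pikfyve, which makes the 3,5-bisphosphate from the class III product, had processed ratios of -0.37, -0.69 and -0.36, below 0 on each array, with a mean of -0.47 ± 0.19 (SD, n = 3). Its loess mean was -0.65 (adjusted p of 0.243 by limma, the lowest of the 6 lists), but a second kept probe of the gene had a loess mean of 0.05. The first probe lies in row 58, where loess ratios ran low. With the row trend removed its mean was -0.41 (adjusted p of 0.623 by limma). Pip5k1a, a kinase that makes the 4,5-bisphosphate, had processed ratios of 0.25, 0.22 and 0.61, above 0 on each array. Its loess mean was 0.63 with an adjusted p of 0.259 by limma, from a probe in row 486, where loess ratios ran high. With the row trend removed the mean was 0.43 (adjusted p of 0.623 by limma). The 2 other probes of Pip5k1a had loess means of 0.13 and 0.34.

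Of 9 tested 3-phosphatases, the enzymes that undo the kinases' product, none was called in the loess fit, and the median was 0.13 on loess and -0.06 on processed ratios. Mtmr6 had a mean processed ratio of -0.24 ± 0.21 and Mtmr14 of -0.24 ± 0.22 (SD, n = 3), both below 0 on all 3 arrays with these probes; both are myotubularin-related phosphatases. A second kept probe of Mtmr14 had a loess mean of 0.14, against -0.43 with the first, which became -0.24 with the row trend removed. Of 13 genes for 4- and 5-phosphatases 0 were called, with a median of 0.07 on loess and -0.13 on processed ratios. Sacm1l, a phosphatase of phosphatidylinositol 4-phosphate, had -0.12, -0.50 and -0.28, while Inpp5b, a 5-phosphatase, had 0.37, 0.30 and -0.17. Of 19 genes of AKT and its downstream arm 0 were called, with a median of 0.05. Rptor, the scaffold of mTOR complex 1, had 0.02, 0.13 and 0.46, and Rheb, the GTPase that activates that complex, had 0.15, -0.10 and 0.40. A second kept probe had a loess mean of -0.02 for Rptor, against 0.50 with the first, and 1 of Atg14 had 0.00 against 0.32. With the row trend removed the means of the first probes were 0.30 for Rptor and 0.12 for Atg14.

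**Figure D4:**
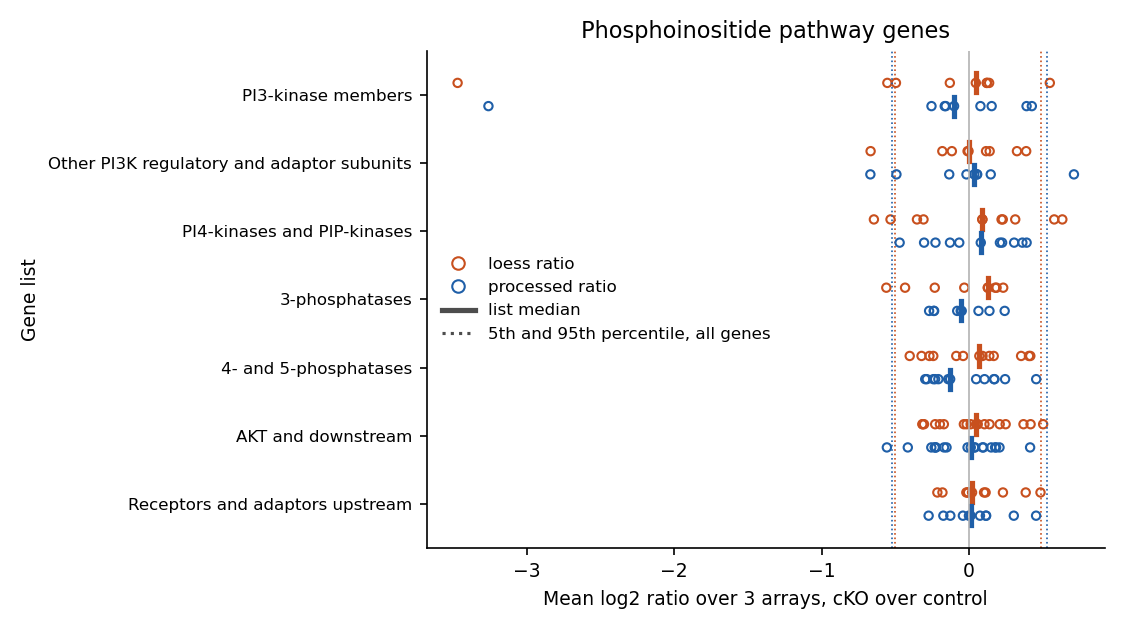
Mean log2 ratio over 3 arrays (horizontal axis, cKO over control) of each tested gene in the family and in 6 further phosphoinositide pathway lists (vertical axis), as loess ratios (orange) and processed ratios (blue); thick bars are list medians and dotted lines the 5th and 95th percentile of all 17841 genes. Pik3c2g stands at -3.47 and -3.26, and the list medians lie between -0.13 and 0.13.

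The genes whose 3 loess ratios lay nearest to those of Pik3c2g were named by their Euclidean distance over the 3 arrays, on the log2 scale. They were Cldn18, a tight junction protein, at a distance of 0.94, Apof, an apolipoprotein, at 1.05, and Etos1 at 1.18. Npb, which encodes neuropeptide B, followed at 1.34 and Star at 1.37. Their mean processed ratios were -3.93 ± 0.11, -3.17 ± 0.42, -3.48 ± 0.54, -2.94 ± 0.34 and -4.09 ± 0.12 in that order (SD, n = 3). The likeness rests on 3 arrays only. Because Pik3c2g was near the lowest of all genes, only strongly lowered genes could lie near it, so the distance reflects mainly the size of the ratios. Star was lowest on array 3, at a loess ratio of -4.23, where Pik3c2g was nearest to 0, at -3.02.

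Markers of the liver and exocrine pancreas, where Pik3c2g is known to be expressed, were in part not above background. Of 6 liver markers 5 had a probe and 4 were tested; their summed processed intensity was 1314 to 2670 in the cKO and 1291 to 3065 in the control pools, and Ttr was not well above background on any array. Of 5 markers of the exocrine pancreas 3 were tested, Prss2 and Pnlip were not well above background on any array, and the sums were 683 to 1426 and 905 to 1152. The sums overlapped between the genotypes for both lists. On processed ratios the list medians were -0.34 for the liver and -0.21 for the pancreas. With the row trend removed from the loess ratios they were -0.15 and 0.08. In the loess ratios 2 of the 4 liver markers were below 0 on all arrays and 1 was above. Of the 3 pancreas markers 1 was below and 1 above on all arrays. The highest loess means were 0.17 and 0.25. The marker with the largest loess mean in size was below 0 on every array in either list. Alb, the plasma albumin gene, had -0.63, -0.53 and -0.73, and Amy2a5, a pancreatic amylase gene, had -1.31, -1.18 and -0.72, with adjusted p of 0.482 and 0.265 by limma on loess ratios. Their part in the Pik3c2g ratio was not tested. Of the tissue's own cells, all 11 luteal and granulosa markers were tested, with sums of 401128 to 459042 in the cKO and 474691 to 721436 in the control pools, which did not overlap. The macrophage sums did not overlap either, with the cKO pools the higher, and the share of such separations over all probes was not counted. Mean loess ratios of single luteal and granulosa markers ran from -4.09 to 1.07. On all arrays 5 of the 11 were below 0 and 1 was above, against 17.8% and 17.5% of all genes. Without Star, a split added after seeing the data, the sums of the other 10 luteal and granulosa markers were 396491 to 453628 and 396926 to 620080, which overlapped. Within array 1 the cKO and control sums were nearly equal, at 396491 against 396926. The cKO sum was the lower on arrays 2 and 3, at 399509 against 434003 and 453628 against 620080. The median of these 10 was -0.17 on loess and -0.27 on processed ratios. For all 11 markers the median loess ratio was -0.17, -0.14 and -0.57 on arrays 1 to 3. Star was the 1 luteal and granulosa marker called, on loess and on processed ratios, and the part of luteal and granulosa cell number in the Pik3c2g ratio was not tested.

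Facts of the arrays bear on all of these values. Between 67.4% and 69.1% of spots were well above background in the cKO channel and 62.9% to 65.8% in the control channel, and the median spot signal was 2.42 to 2.80 and 1.80 to 2.36 times its local background. The processed ratios of all probes correlated across probes at 0.348 for arrays 1 and 2, at 0.0303 for 1 and 3, and at -0.214 for the pair on the other slide, arrays 2 and 3 (probes are not independent replicates). The targeted gene, Arntl, had processed ratios of 0.26, 0.10 and -0.28; the labels do not say which part of the gene was floxed, so its probe does not check the genotypes.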

How the data were processed

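Per the file headers, the intensity values come from Agilent Feature Extraction 9.1.3.1, which the authors ran on each of 3 arrays. The deposited log10 ratio is red over green, so control over cKO, and it was turned and put on the log2 scale; the deposited table of values holds the same log10 ratios (largest difference 0). About 18% of ratios are 0 because both channels had surrogate values. What else the authors did is not given in the sources used here. For tests, mean signals were corrected by normexp (offset 50), normalised by loess and fitted with limma 3.58.1 in R 4.3.3 on probes well above background in 1 channel on all 3 arrays, each gene read by its brightest kept probe, with Benjamini-Hochberg adjustment over 17841 genes. The fit was tested on simulated data. A probe's gene was named through RefSeq (GRCm38.p6) by accession (24844 probes), symbol (6045) or synonym (1810), and otherwise kept the name in the files (8475). The replicate is the array with its own pools, so p-values reflect 3 pools per genotype. The number after the Cre name in the genotype labels follows the array number, and the arrays were grouped by title. Members, lists and the rule for named genes (up to 2 per list with the largest mean of 1 sign on all arrays) were chosen with earlier results of these data known. Alternatives covered background, normalisation, filter, probe choice, slide and left-out arrays; removing the trend over rows was added after seeing the data.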

Additional observations from a re-analysis of the deposited data

How the results depend on the processing

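Pik3c2g was lower in the cKO pools under 12 of 12 alternatives, between -3.70 and -2.88 on the log2 scale, and called under 6, with adjusted p from 0.00755 to 0.182 by limma. It was not called with the arrays scaled to a common spread (-3.54, adjusted p of 0.110), with every kept probe as a row (-3.47, 0.0578), with median centring (-3.26, 0.0563), with no filter on dim probes (-3.47, 0.182) or within the slide of arrays 2 and 3, the same fit as without array 1 and counted once (-3.19, 0.0576), and leaving out 1 array each gave -3.70 to -3.19. Under these settings 0 members were called, against 1, and leave-one-out gave 0 members without array 1 or without array 3. Genes called higher, 13, became 0 with scaled arrays, with every probe as a row, with median centring, with no filter and within the slide, 29 with an offset of 0, 27 on processed signals and 26 with the slide as a block; leaving out 1 array gave 0 to 11. Genes called lower, 19, became 0 with scaled arrays, 1 with every probe, 1 with median centring, 0 with no filter, 30 with an offset of 0 and 1 within the slide, and 0 to 10 without 1 array. At those counts of 0 the unadjusted p by limma was under 0.05 for 2297 (scaled), 3060 (every probe), 2735 (median centring), 3181 (no filter), 770 (within the slide, or without array 1) and 4775 (without array 3) genes or probes in all.

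The median of the members, 0.05, was -0.10 with the mean of each gene's kept probes, 0.11 with median centring, -0.10 on processed signals, -0.0053 with the slide as a block, 0.0013 within the slide, -0.085 with the row trend removed and -0.078 to 0.048 without 1 array. Signs turned for Pik3r1 with the mean of its probes (-0.11), on processed signals (-0.16), with the row trend removed (-0.068) and without 1 array (-0.12 to 0.49, below 0 without array 2). They turned for Pik3cg with the row trend removed (-0.085), Pik3cd with the slide as a block (-0.0053) and without 1 array (-0.078 to 0.15), Pik3c2a with median centring (0.037) and without 1 array (-0.24 to 0.0057), and Gab1 on processed signals (-0.042). Arntl turned within the slide (-0.053) and without 1 array (-0.053 to 0.20), and Ovgp1, an oviduct marker, with the slide as a block (0.00010) and without 1 array (-1.25 to 1.09). The cause was not tested. Of the other values of single genes, 380 kept their direction and side of the threshold and 27 lost the call. No separate paired analysis was run. Each array gives 1 ratio of both genotypes, and the fit of these ratios against 0 already uses that pairing.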
